A study of Mus musculus with 9 samples.

Results

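Intergenic CHD7 peaks 10 to 50 kb away are the peaks of the deposited CHD7 list (mm10) whose midpoint lay outside every protein-coding gene body of GENCODE M21 and over 10 kb, but at most 50 kb, from the nearest transcription start site (TSS), which is the 5′ end of a transcript, counting all transcripts of protein-coding genes. The rule used position only, and 593 of 3761 peaks (15.8%) met it. The list came from wild-type (WT) cardiac precursor (CP) cells at day 5 of the in vitro differentiation of C57BL6 mouse embryonic stem cells into cardiomyocytes. Chromatin was profiled by CUT&RUN, in which a nuclease bound to an antibody cuts out the DNA around the antibody's target for sequencing. The same WT cells were used in 3 groups of 3 biological replicates, with anti-CHD7, with IgG as negative control and as input, and the authors made 1 list of peaks found with anti-CHD7 over IgG in at least 2 replicates. Only the start and end of each peak were used, so no value here has a replicate error. Library depth, peak height and differences between replicates are unknown, and all intervals are 95% intervals that cover counting error only.

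CHD7 is an ATP-dependent chromatin remodeller of the chromodomain helicase family that slides nucleosomes, and it is known for occupying enhancers as well as promoters. Loss of a functional copy of its gene causes CHARGE syndrome, in which congenital heart defects are common. Enhancers are stretches of DNA that bind transcription factors and act on promoters at a distance, and the gene nearest to an enhancer need not be the gene it controls.

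The sequences shown first are the 200 bp around the midpoint (GRCm38, plus strand) of 4 of the 6 peaks named by rule that held a match to the GATA motif AGATAA on either strand (TTATCT where the other strand holds it). Such a match was in 6 of the 47 peaks named by rule and in 13.8% of all 593 peaks. It was also in 12.6% of 200 bp windows outside peaks in sequence that meets the rule, so nothing is read from the count. GATA factors are central regulators of cardiac mesoderm. Capitals mark the matches. The peaks lay near Tpm1, which encodes the sarcomere protein tropomyosin 1, near Wnt5a, a ligand of noncanonical WNT signalling, near Foxa2, a forkhead factor of endoderm, and near Cemip, which has the closest pair of peaks. The windows were at chr9:67077764-67077963, chr14:28480765-28480964, chr2:148005241-148005440 and chr7:84104798-84104997.
Tpm1: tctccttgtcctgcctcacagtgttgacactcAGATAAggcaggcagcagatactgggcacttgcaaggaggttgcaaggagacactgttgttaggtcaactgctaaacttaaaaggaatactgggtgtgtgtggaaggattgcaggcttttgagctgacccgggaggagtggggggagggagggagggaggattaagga
Wnt5a: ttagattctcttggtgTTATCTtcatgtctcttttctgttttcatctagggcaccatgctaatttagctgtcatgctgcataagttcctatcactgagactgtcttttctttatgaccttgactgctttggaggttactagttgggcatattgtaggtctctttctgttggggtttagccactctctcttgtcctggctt
Foxa2: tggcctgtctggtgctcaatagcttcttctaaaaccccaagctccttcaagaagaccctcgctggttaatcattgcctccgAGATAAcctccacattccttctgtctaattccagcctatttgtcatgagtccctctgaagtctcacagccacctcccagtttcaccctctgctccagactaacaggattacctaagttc
Cemip: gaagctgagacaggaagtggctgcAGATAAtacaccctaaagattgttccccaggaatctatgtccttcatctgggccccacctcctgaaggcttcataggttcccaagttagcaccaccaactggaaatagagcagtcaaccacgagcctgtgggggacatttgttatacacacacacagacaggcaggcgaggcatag
Each of these 4 windows held 1 match, and the other 2 windows with a match are not shown. The peak near Foxa2 lay in the lincRNA (long intergenic noncoding RNA) gene 9030622O22Rik.

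A second set shows matches to a 12-letter consensus for CTCF, a protein that binds insulators and the anchors of chromatin loops. Only 6 of the 593 windows of 200 bp held such a match. The 60 bp around the match are given for the 5 widest of these 6 peaks, chosen after their values were seen, on the plus strand of GRCm38 with the match in capitals. Their nearest genes were Ddah1 (chr3:145729745-145729804), Olfml2b (chr1:170632560-170632619), N4bp1 (chr8:86903274-86903333), Snx32 (chr19:5529402-5529461) and Rrp1b (chr17:32073481-32073540).
Ddah1: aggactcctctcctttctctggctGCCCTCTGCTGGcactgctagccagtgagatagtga
Olfml2b: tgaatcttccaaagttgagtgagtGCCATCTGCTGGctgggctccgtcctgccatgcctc
N4bp1: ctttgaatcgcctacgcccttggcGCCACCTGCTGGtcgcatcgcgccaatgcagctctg
Snx32: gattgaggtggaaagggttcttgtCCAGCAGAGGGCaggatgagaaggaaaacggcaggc
Rrp1b: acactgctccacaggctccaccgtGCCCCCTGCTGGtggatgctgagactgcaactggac
The peaks near N4bp1 and Snx32 lay in the noncoding genes Gm27167 and Gm31166, and the others lay in no annotated gene.

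The 593 peaks were more numerous close to their genes than far from them. From midpoint to TSS the median distance was 23789 bp (quartiles 15666 and 34106 bp). There were 238 peaks over 10 and up to 20 kb away, 153 up to 30 kb, 124 up to 40 kb and 78 up to 50 kb. Part of this decline is in the genome itself, since the sequence that meets the rule also shrinks with distance, from 134.3 Mb in the nearest of these classes to 64.2 Mb in the farthest. Per Mb of this eligible sequence the density was 1.77 peaks (exact Poisson interval 1.55 to 2.01) at 10 to 20 kb and 1.55 (1.31 to 1.81) at 20 to 30 kb. It was 1.58 (1.31 to 1.88) at 30 to 40 kb and 1.22 (0.960 to 1.52) at 40 to 50 kb.

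The rule's limits fell between peaks of ordinary width. Just inside 10 kb was a peak 10011 bp upstream of Fabp1, which encodes a fatty acid binding protein, and just outside it was an intergenic peak 9962 bp upstream of Prcd. Just inside 50 kb was a peak 49894 bp downstream of the TSS of Hira, a histone chaperone, and just outside it was an intergenic peak 50067 bp downstream of the TSS of Spag9.

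Over the whole class the density was 1.58 peaks per Mb (1.45 to 1.71) in 376.2 Mb. Genic peaks at the same distances had 1.69 per Mb, and the rate ratio of 0.933 (0.832 to 1.05) was not significant (exact conditional test, 2-sided P = 0.227, 0.476 after Benjamini-Hochberg adjustment over 21 tests). Intergenic peaks 50 to 100 kb away had 1.28 per Mb, so density was 1.23 times (1.06 to 1.42) higher in the nearer class (exact conditional test, adjusted P = 0.0158). Both calls depended on the processing. With 1 TSS per gene, the genic ratio fell to 0.806 and became significant (exact conditional test, adjusted P = 6.25e-04), while the ratio to the farther class was 1.16 and no longer significant (adjusted P = 0.124). The latter call was also lost at ratios of 1.2 with genes of any type left out and 1.16 without chromosomes X and Y, and in the wider peaks alone, where the ratio was no smaller (1.28) but fewer peaks were counted.

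**Figure D1:**
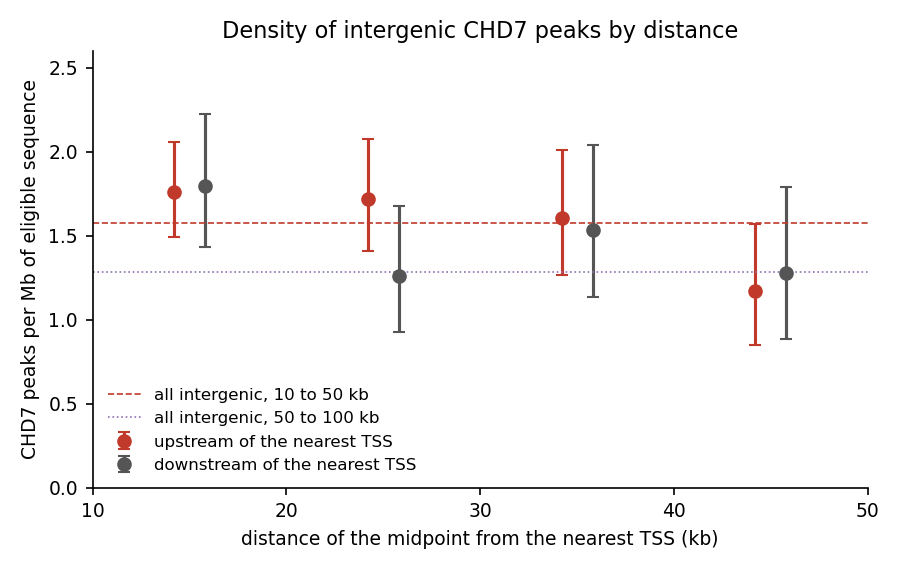
Density of intergenic CHD7 peaks, in peaks per Mb of eligible sequence, by distance of the midpoint from the nearest TSS in classes of 10 kb, upstream (red) and downstream (grey) of that TSS. Bars are exact 95% Poisson intervals and cover counting error only; the dashed line is the whole class (1.58) and the dotted line the intergenic peaks 50 to 100 kb away (1.28). The intervals of both sides overlap in every class of distance.

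Of the 593 peaks, 380 (64.1%, Wilson interval 60.1 to 67.8) were on the upstream side of the nearest TSS and 213 on the downstream side, beyond the end of the gene. Intergenic sequence is itself mostly upstream, because the gene body takes up the other side, and 62.3% of the eligible sequence was upstream. The density was 1.62 per Mb (1.46 to 1.79) upstream and 1.5 (1.31 to 1.72) downstream. The share upstream did not differ significantly from the 58.2% of intergenic peaks at 50 to 100 kb (Fisher's exact test, 2-sided as all below, odds ratio 1.28, 0.950 to 1.73, adjusted P = 0.265), where 56.9% of the eligible sequence was upstream.

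Every autosome held members, from 15 on chromosome 19 to 50 on chromosome 1. Chromosome 11 had the highest density, with 46 peaks and 2.79 per Mb (2.04 to 3.72), followed by chromosome 9 with 46 peaks and 2.49 per Mb (1.82 to 3.32). The sex chromosomes stood apart. Chromosome X had 4 peaks in 30.1 Mb, or 0.133 per Mb (0.0362 to 0.341), and chromosome Y had 0 in 10.6 Mb (up to 0.350 per Mb). Of all 3761 peaks, 14 were on X and 1 on Y. The sex of the cells is not given in the sources used here, and its part in these numbers was not tested.

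The word intergenic holds for protein-coding genes but not for all genes. Of the 593 midpoints, 92 (15.5%, 12.8 to 18.7) lay inside a gene that is not protein-coding, and 501 lay in no annotated gene. Noncoding genes covered 12% of the eligible sequence. LincRNA genes held 59 of the peaks, antisense genes 12 and genes of processed transcripts 12, and some midpoints lay in more than 1 gene. The share was close to the 14.9% of intergenic peaks at 50 to 100 kb (Fisher's exact test, odds ratio 1.05, 0.696 to 1.60, adjusted P = 0.930), and in wider peaks the odds ratio was 0.686, also not significant.

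Some sat at the start of a noncoding gene. In 32 of 593 (5.4%, 3.85 to 7.52) the midpoint was within 1 kb of the annotated 5′ end of one, pseudogenes included. The counts were 11 of 282 (3.90%) at 50 to 100 kb, 10 of 614 (1.63%) of genic peaks and 75 of 585 (12.8%) of promoter peaks, given with no test. The share of the eligible sequence this close to such a start was not computed, so nothing is read from the count. Examples, chosen after their values were seen, were a peak of 1582 bp at chr13:28941880-28943461, 377 bp from the start of the lincRNA gene Gm26735 and 11042 bp downstream of the TSS of Sox4, a SOX factor of developing tissues. A peak at chr2:19432163-19432615 was 406 bp from the start of the antisense gene Gm13344 and 13274 bp upstream of Ptf1a, a regulator of pancreas and neural development. A peak at chr15:85707419-85708005 was 393 bp from Mirlet7b, which encodes a microRNA of the let-7 family, and 27271 bp upstream of Ppara. For these an annotated 5′ end of a noncoding gene was therefore much closer than the distance the rule measures.

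In width the group was like the list as a whole. The median was 706 bp, with quartiles at 523 and 1040 bp and a range of 344 to 2677 bp, against 703 bp for all peaks. Of the 593 peaks, 299 (50.4%, 46.4 to 54.4) were wider than 703 bp, against 61.0% of promoter peaks, those within 1 kb of a TSS (Fisher's exact test, odds ratio 0.650, 0.512 to 0.824, adjusted P = 0.00144). No significant difference was found from genic peaks at the same distance (49.2%, odds ratio 1.05, 0.833 to 1.33) or from intergenic peaks at 50 to 100 kb (48.2%, odds ratio 1.09, 0.814 to 1.47). There were 164 peaks wider than 1 kb and 13 wider than 2 kb.

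The 3 widest were near Rassf3, Gnpnat1 and Eps8l3. The Rassf3 peak and the Gnpnat1 peak (chr14:45434526-45437202) were each 2677 bp wide, and the Eps8l3 peak (chr3:107838858-107841522) was 2665 bp wide. Rassf3 encodes a RAS association domain protein, Gnpnat1 an enzyme of amino sugar synthesis and Eps8l3 a relative of the EGF receptor substrate EPS8. All 3 were upstream of these genes, that of Gnpnat1 at 30951 bp and that of Eps8l3 at 37039 bp. Width was nearly unrelated to distance over the 593 peaks (Spearman's rho = -0.0176) and to GC content (rho = 0.0244), given as a description.

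In base composition the group was unlike promoter peaks. GC content had a median of 46.8%, with quartiles at 43.9 and 49.9%, against 54.9% in promoter peaks and 42.6% over all the eligible intergenic sequence. All sequence within 1 kb of a TSS had a GC content of 48.1%. GC was above 50% in 144 of 593 peaks (24.3%, 21 to 27.9) and in 77.6% of promoter peaks (Fisher's exact test, odds ratio 0.0928, 0.0700 to 0.122, adjusted P = 1.76e-77). Measured in the 200 bp around the midpoint, the odds ratio was 0.162 (Fisher's exact test, adjusted P = 1.17e-48). The share was 24.3% in genic peaks at the same distance (odds ratio 1, 0.762 to 1.31) and 21.3% at 50 to 100 kb (odds ratio 1.19, 0.834 to 1.70), and neither difference was significant (Fisher's exact tests, adjusted P = 1 and 0.663). A P-value that misses the threshold does not show that the shares were equal. No peak of the group had GC above 60% (0 of 593, up to 0.506%). The highest, 59.4%, was near Adarb1 and the lowest, 29.5%, near the olfactory receptor gene Olfr1330.

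**Figure D2:**
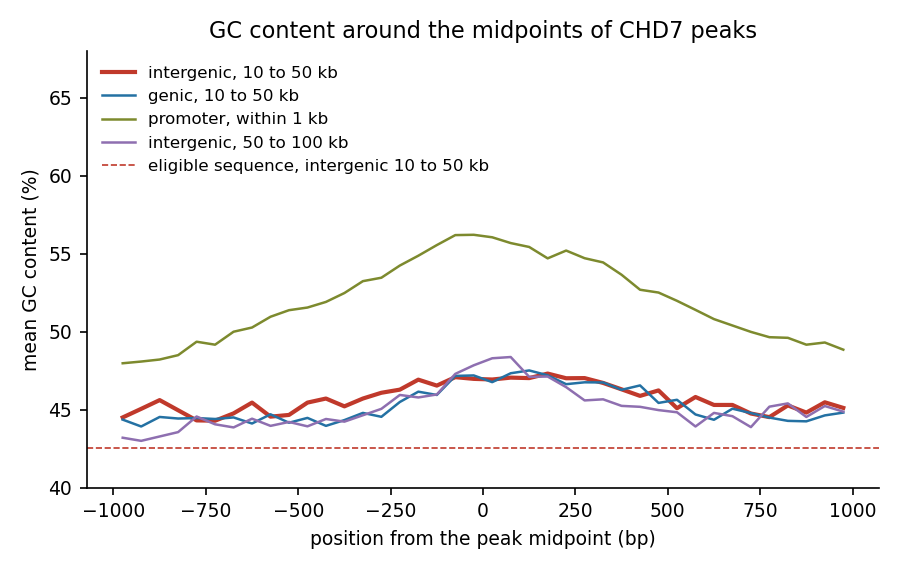
Mean GC content in bins of 50 bp, by position from the peak midpoint, for the 593 intergenic peaks at 10 to 50 kb (red), genic peaks at the same distance (blue), promoter peaks (green) and intergenic peaks at 50 to 100 kb (purple). The dashed line is the GC content of the eligible intergenic sequence (42.6%), and the vertical axis starts at 40%; the red line lies below the promoter line throughout, by most near the midpoint (47.0 against 56.2%) and by less at the left edge (44.5 against 48.0%).

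None of the 593 peaks met the criteria of a CpG island over its whole length, which are GC above 50%, a ratio of observed to expected CpG above 0.6 and at least 200 bp. A count of 0 of 593 allows a share of up to 0.506%. Promoter peaks met them in 234 of 585 (40%, 36.1 to 44.0), a difference past the threshold (Fisher's exact test, odds ratio 0, upper limit 0.00951, adjusted P = 2.15e-83). At 50 to 100 kb 3 of 282 met them (Fisher's exact test, odds ratio 0, upper limit 1.15, adjusted P = 0.0997, 0.0332 before adjustment), and of the genic peaks at the same distance 1 of 614. With 1 TSS per gene some members met the criteria, and the odds ratios were 0.774 against genic peaks and 0.526 against the farther class, neither significant. Read in the 500 bp around the midpoint, some members met them too. The odds ratios were then 1.04 against genic peaks and 0.354 against the farther class, neither significant, and 0.00733 against promoter peaks, still significant. CpG islands mark most promoters of broadly used genes, and CpG outside them is depleted in mammalian genomes. The median ratio of observed to expected CpG was 0.187 in the group, against 0.548 in promoter peaks. The single peak above 0.6 (0.758) was near Mreg at chr1:72243706-72245198, with GC of 46.2%, named after its values were seen.

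Repeats, counted as the soft-masked bases of the reference, made up a median of 17.2% of each peak, with quartiles at 8.47 and 32.0%, against 41.1% of the eligible sequence. There were 38 peaks with no repeat base and 60 (10.1%, 7.94 to 12.8) with at least 50%. The latter share was higher than in genic peaks at the same distance, with 31 of 614 (5.05%; Fisher's exact test, odds ratio 2.12, 1.33 to 3.43, adjusted P = 0.00417), but with 1 TSS per gene the odds ratio was 1.38 and no longer significant (adjusted P = 0.330). In peaks wider than the median the odds ratio was 11.3 (Fisher's exact test, adjusted P = 1.46e-04). The eligible genic sequence also held fewer repeats, 28.9%, and the sequence within 1 kb of a TSS held 18.7%. Promoter peaks had 7 of 585 (Fisher's exact test, odds ratio 9.28, 4.19 to 24.3, adjusted P = 2.87e-11) and intergenic peaks at 50 to 100 kb 24 of 282 (odds ratio 1.21, 0.723 to 2.08, adjusted P = 0.759). Over the 593 peaks GC content was lower where repeats took up more (Spearman's rho = -0.262, a description). Reads are harder to place in repeats, and the mapping filter is not given in the sources used here.

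**Figure D3:**
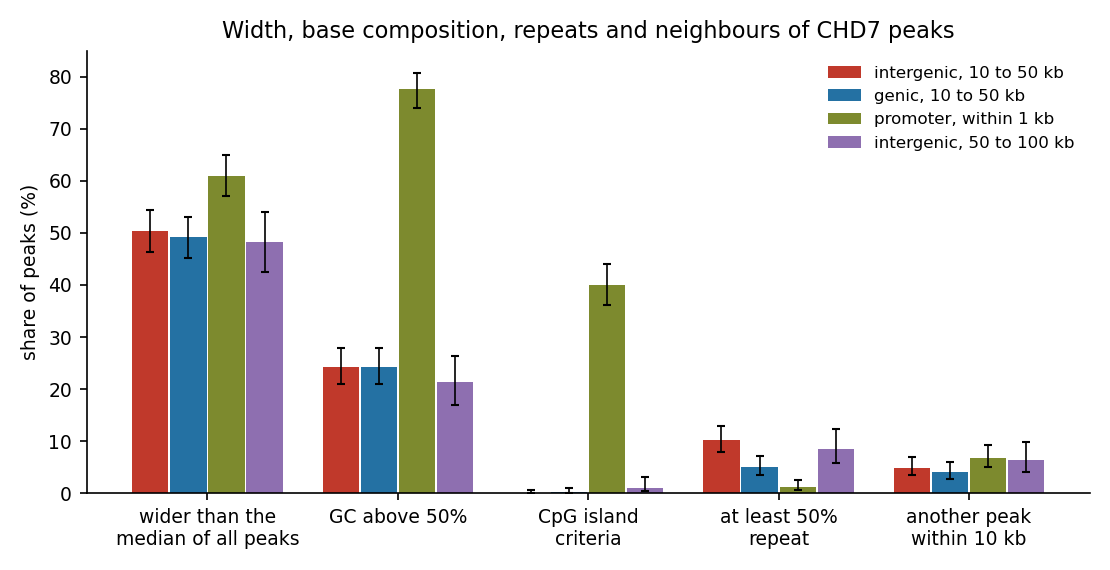
Share of peaks (%) wider than the median of all peaks, with GC above 50%, meeting the CpG island criteria, with at least 50% repeat bases and with another CHD7 peak within 10 kb, in 593 intergenic peaks at 10 to 50 kb (red), 614 genic peaks at the same distance (blue), 585 promoter peaks (green) and 282 intergenic peaks at 50 to 100 kb (purple). Bars have Wilson 95% intervals. The red bars differ from the green ones most in GC (24.3 against 77.6%) and in CpG island criteria (0 against 40%).

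Most of the peaks stood alone. The nearest other CHD7 peak of any class was a median of 131299 bp away, with quartiles at 50277 and 303071 bp. Another peak was within 10 kb for 29 of 593 (4.89%, 3.43 to 6.94), and another member of the group for 22. The share was 4.07% in genic peaks at the same distance, 6.84% at promoters and 6.38% at 50 to 100 kb, with odds ratios of 1.21 (0.676 to 2.19), 0.701 (0.413 to 1.18) and 0.754 (0.397 to 1.47) and no significant difference (Fisher's exact tests, adjusted P = 0.759, 0.403 and 0.739). In peaks wider than the median the odds ratios against genic and promoter peaks were 3.11 and 1.11, also not significant. The closest pair lay upstream of Cemip, a hyaluronan-binding protein gene, with 1465 bp between midpoints and 590 bp between edges. These peaks were at chr7:84102901-84103964 and chr7:84104555-84105240, and the latter holds the GATA match shown above.

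The nearest gene had a CHD7 peak at its own promoter for 20 of 593 members (3.37%, 2.19 to 5.15). This is near the share of all 21938 protein-coding genes with a peak within 1 kb of a TSS, 2.87%. Of the 13979 genes nearest to any eligible sequence, 355 had one. The former is a share of peaks and the latter are counts of genes, so nothing is read from the members' share. Genic peaks at the same distance had 4.07% (Fisher's exact test, odds ratio 0.823, 0.428 to 1.56, adjusted P = 0.759) and intergenic peaks at 50 to 100 kb 2.84% (odds ratio 1.2, 0.497 to 3.18, adjusted P = 0.930). The latter odds ratio was 1.95 with genes of any type left out and 0.792 in wider peaks, neither significant. Among the named genes it was so for Tpm1, Lhx1 and Rps24.

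Motifs separated the group from promoter peaks but from no other class. The 200 bp centred on each midpoint were searched, on either strand, for 16 consensus motifs, and of 48 comparisons 6 passed after adjustment over all 48, all against promoters. In windows of 100 bp 3 passed and in windows of 500 bp 11. Unadjusted P was under 0.05 in 10, of which 8 were against promoters, 2 against intergenic peaks at 50 to 100 kb and 0 against genic peaks. A match is a short word in the sequence and not evidence that a factor was bound.

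The GC box GGGCGG, a word of SP and KLF factors at promoters, was found in 21 of 593 windows (3.54%, 2.33 to 5.35) against 30.4% of promoter windows (Fisher's exact test, odds ratio 0.0841, 0.0499 to 0.135, adjusted P = 8.62e-37). The other 5 were more frequent in the group. The GATA motif AGATAA was in 82 windows (13.8%, 11.3 to 16.8) against 6.50% (Fisher's exact test, odds ratio 2.31, 1.52 to 3.56, adjusted P = 3.67e-04), with 8 windows holding 2 matches. In peaks wider than the median the GATA difference was no longer significant (Fisher's exact test, odds ratio 1.84, adjusted P = 0.197). The E-box CATCTG of HAND factors, bHLH regulators of the heart, was in 111 windows (18.7%, 15.8 to 22.1) against 9.57% (Fisher's exact test, odds ratio 2.17, 1.52 to 3.13, adjusted P = 1.32e-04). The HAND difference was not significant in windows of 100 bp (Fisher's exact test, odds ratio 1.66, adjusted P = 0.150).

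Of these 5, the homeobox core TAATTA had the greatest odds ratio against promoters. It was in 42 windows (7.08%, 5.28 to 9.44) against 1.37% of promoter windows (Fisher's exact test, odds ratio 5.49, 2.52 to 13.7, adjusted P = 1.74e-05). Its size depended on the setting, with an odds ratio of 14.5 with 1 TSS per gene and 2.83 in windows of 500 bp, both significant. The motif CTAATNG of ISL1, a LIM homeodomain factor of the second heart field, was in 43 (7.25%, 5.43 to 9.63) against 2.74% (Fisher's exact test, odds ratio 2.78, 1.51 to 5.35, adjusted P = 0.00413). The ISL1 difference missed the threshold at much the same size in wider peaks (Fisher's exact test, odds ratio 2.62, adjusted P = 0.117) and in windows of 100 bp (odds ratio 2.70, adjusted P = 0.0846). Both words share the letters TAAT, so some windows can count for both. The SOX word ACAATG was in 59 (9.95%) against 5.30% (Fisher's exact test, odds ratio 1.97, 1.24 to 3.21, adjusted P = 0.0235), and in windows of 100 bp it missed the threshold with an odds ratio of 2.03 (adjusted P = 0.140). Promoter windows had more GC, with a median of 56.5% against 47.0%, and the GC box is made of G and C alone. The part of base composition in these differences was not tested.

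The share in sequence outside peaks gives the level to read these against. The eligible intergenic sequence at 10 to 50 kb was cut into adjoining windows of 200 bp, and 1877616 of them held no N and no peak. AGATAA was in 12.6% of these windows as they are, and in 9.77% when they were weighted to the GC content of the members' windows, against 13.8% of members. For TAATTA the values were 6.25, 3.87 and 7.08%, for CTAATNG 5.4, 4.97 and 7.25%, and for CATCTG 15.5, 16.8 and 18.7%. At the members' GC the share of each of these 4 words was higher in members. For CATCTG, though, the members' interval (15.8 to 22.1) held that level. The intervals for AGATAA (11.3 to 16.8) and TAATTA (5.28 to 9.44) held the unweighted level. ACAATG was in 9.95% of members (7.79 to 12.6) against 10.7% (12.3% unweighted), and its interval held both levels. The GC box was in 1.9% of windows as they are and 3.19% at the members' GC, close to the 3.54% of members. Windows cut in the same way from the sequence within 1 kb of a TSS held each of the 5 words more often than promoter peaks did: AGATAA in 9.83%, CATCTG in 13.8%, TAATTA in 4.77%, CTAATNG in 4.05% and ACAATG in 9.27%. These windows were not weighted to the GC of promoter peaks. The GC box was in 9.66% of these promoter windows, below the 30.4% of promoter peaks. These windows were described and not tested.

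The other motifs lay on both sides of the level at the members' GC. CTCF had 6 matches (1.01%, 0.465 to 2.19) against 0.203% of windows at the members' GC, with 2 of 614 in genic peaks, 7 of 585 at promoters and 0 of 282 (up to 1.06%) at 50 to 100 kb. The TALE word TGACAG of MEIS factors was in 16.4% against 13.7% of windows, the TEAD word CATTCC in 12.1 against 11.7%, the forkhead word TAAACA in 12.8 against 11.5% (15.7% unweighted, so its direction turned) and the AP-1 word TGANTCA in 7.59 against 5.84%. The TCF/LEF word ATCAAAG was in 4.38 against 3.35%, the OCT word ATGCAAAT in 2.02 against 1.28% and the T-box word GGTGTGA in 2.19 against 3.14%. The caudal word CATAAA was in 8.26 against 10.5% and the 10-letter MEF2 consensus in 1.69 against 2.34%. Unweighted, the direction of the other 9 was the same. None of these 10 differed significantly from any class of peaks after adjustment.

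Against intergenic peaks at 50 to 100 kb, TAATTA was in 7.08% of members and 2.84% of the farther peaks (Fisher's exact test, odds ratio 2.61, 1.19 to 6.52, adjusted P = 0.0758, 0.0120 before adjustment). GGTGTGA was in 2.19 and 4.96% (Fisher's exact test, odds ratio 0.429, 0.183 to 1, adjusted P = 0.169, 0.0353 before adjustment). Neither passed. At least 1 of the 16 motifs was matched in all but 154 of the 593 windows, and 209 windows matched exactly 1 motif. The most, 5, were matched in 2 windows, near B3gnt5 and Abhd17b, named after their values were seen.

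**Figure D4:**
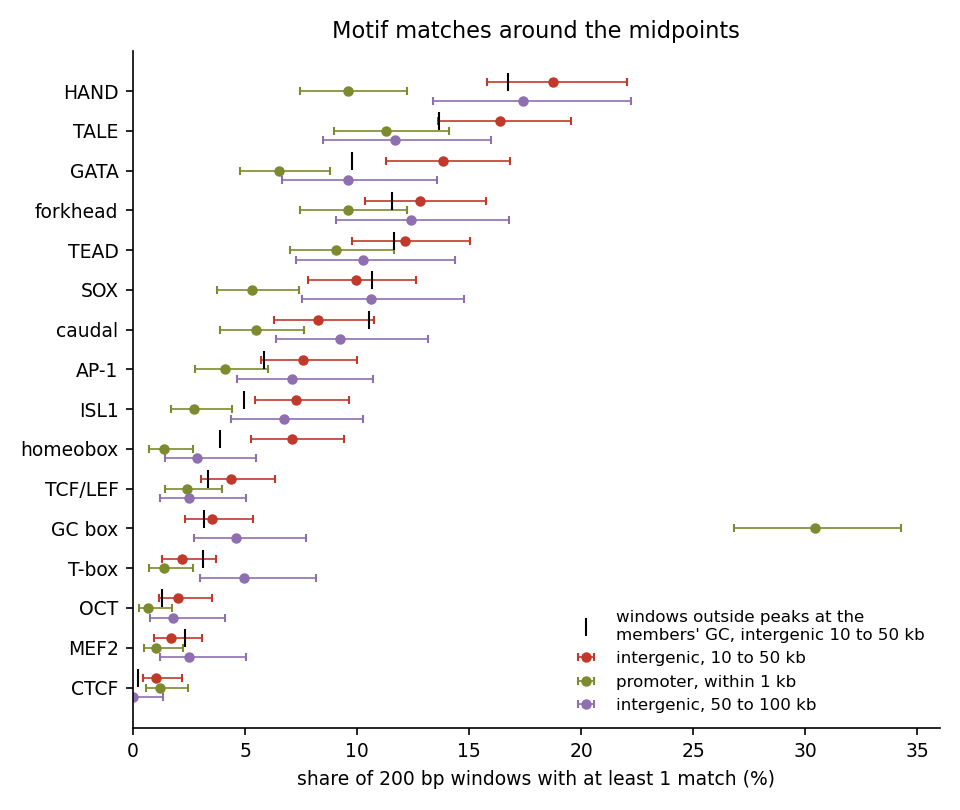
Share of 200 bp windows (%) with at least 1 match to each of 16 motifs, in 593 intergenic peaks at 10 to 50 kb (red), 585 promoter peaks (green) and 282 intergenic peaks at 50 to 100 kb (purple). Bars are Wilson 95% intervals, and black ticks are the share in windows outside peaks in the eligible intergenic sequence, weighted to the members' GC. The GC box is the widest gap between members (3.54%) and promoters (30.4%).

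By the nearest TSS, the 593 peaks fell to 562 genes, which is 2.56% of the 21938 protein-coding genes and 4.02% of the 13979 genes that are nearest to any eligible sequence. Of these genes, 533 had 1 member, 27 had 2 and 2 had 3. The nearest gene was 1 of the genes bordering the interval for 584 of the 593 peaks. The genes with 3 were Nek2, a centrosomal kinase, and Ino80c, a subunit of the INO80 remodelling complex. The Nek2 peaks were 34525 and 29697 bp upstream and 21441 bp downstream of the TSS, and the former pair had midpoints 4828 bp apart. The Ino80c peaks were 43855 bp downstream and 22611 and 32511 bp upstream.

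Of 15 lists with 383 different genes in all, 35 genes (9.14%) were nearest to at least 1 member, with 38 peaks in 11.7 Mb of eligible sequence. The share was above 2.56% in 13 of the 15 lists, cytosolic ribosomal protein genes with 3 of 25 included, and the lists were chosen with results of these data known, so nothing is read from the share of a list or of all lists together.

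**Figure D5:**
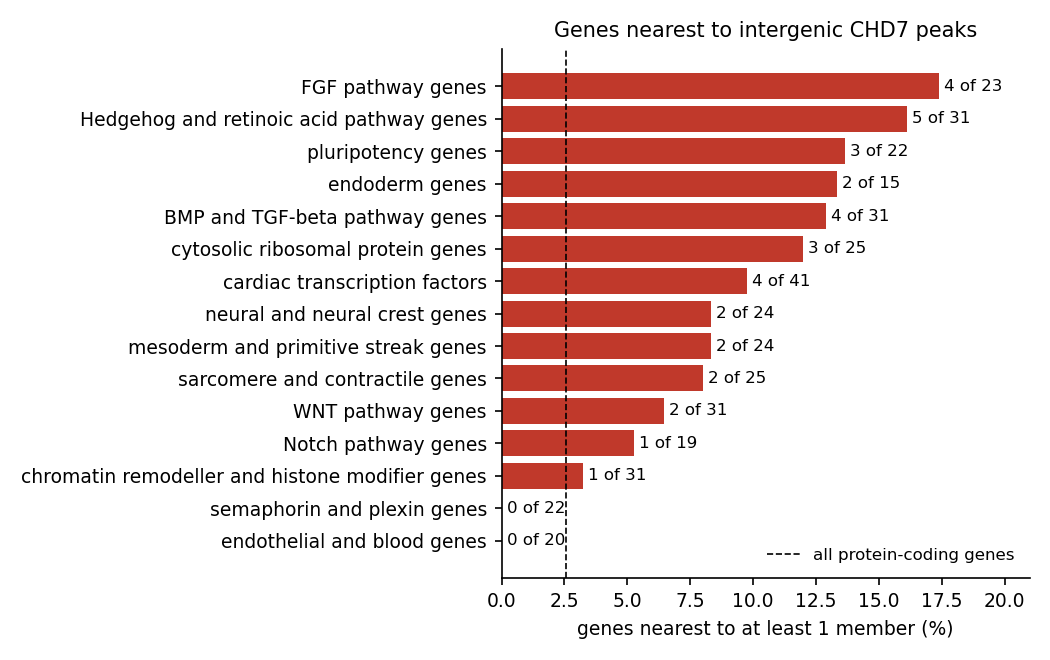
Share of genes (%) in each of 15 lists that are nearest to at least 1 intergenic CHD7 peak at 10 to 50 kb, with the count beside each bar. The dashed line is the share of all protein-coding genes (2.56%); the counts run from 0 to 5 genes a list.

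Among 41 cardiac transcription factor genes, 4 were nearest to a member, Gata4, Gata6, Tbx3 and Irx5, with 5 peaks in 1.97 Mb. Gata4 and Gata6 encode zinc finger factors needed for early heart formation. The Gata4 peak was 1161 bp wide and 30527 bp upstream (chr14:63301639-63302799), in the interval towards Blk. Gata6 had a pair of peaks 14606 and 11833 bp upstream, of 652 and 1719 bp, with 2773 bp between midpoints, in the interval towards Mib1. The Gata6 pair lay in the noncoding gene 1010001N08Rik, and none of the 3 windows held a GATA match. Tbx3 encodes a T-box repressor of the conduction system. The peak of 966 bp nearest to it (chr5:119706035-119707000) was 26269 bp downstream of its TSS, between Tbx3 and Tbx5. The paper assigns this peak to Tbx5, whose expression rose in its embryos without Chd7 in mesoderm. It reports that the peak overlaps a candidate cardiac enhancer and histone marks of embryonic heart. Irx5 is an Iroquois homeobox gene, and its peak of 512 bp (chr8:92315529-92316040) was 41840 bp upstream, between Irx3 and Irx5. None of the 4 genes had a promoter peak.

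Among 24 mesoderm and primitive streak genes, Lefty1 and Lhx1 were nearest to a member. Lefty1 encodes an inhibitor of Nodal, and its peak of 798 bp (chr1:180924342-180925139) was 10281 bp upstream, close to the rule's lower limit, with no repeat base. Lhx1 encodes a LIM homeodomain factor of the streak and early mesoderm. Its peak was only 436 bp wide (chr11:84545510-84545945), 20193 bp upstream, with 89.9% of its bases in repeats, a kind of sequence in which reads are harder to place. Lhx1 was nearest to 4 CHD7 peaks in all, of which this was the only member, and had a promoter peak.

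Among pluripotency genes, Sox2 (498 bp, 34749 bp upstream) and Otx2 (695 bp, 46003 bp upstream) were nearest to a member. Both encode transcription factors that also act in the early embryo, and each was nearest to this single CHD7 peak. The Sox2 peak lay in the noncoding gene Sox2ot and the Otx2 peak in Otx2os1. Of 25 sarcomere and contractile genes there were 2. Actn2, which encodes the actin cross-linker of the Z-disc, had a peak of 1024 bp 12024 bp upstream (chr13:12352272-12353295). Tpm1 had a peak of 856 bp 28458 bp upstream (chr9:67077436-67078291), where the first GATA window shown above lies, and was nearest to 4 CHD7 peaks in all.

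In the WNT list, 2 of 31 genes had members. Wnt5a had a peak of 1506 bp 23885 bp upstream (chr14:28480112-28481617), the widest among the peaks of the pathway lists. Axin2, a feedback inhibitor and common readout of WNT signalling, had a peak on either side, 22562 bp upstream and 18235 bp downstream of the TSS, of 557 and 526 bp. In the BMP and TGF-beta list it was 4 of 31. Bmp2, a ligand needed in cardiac mesoderm, had a peak of 840 bp 12153 bp upstream, Id2, a BMP target, one of 666 bp 41422 bp upstream and Smad4, the common mediator of both pathways, one of 994 bp 33385 bp downstream of the TSS. The fourth was Smad3.

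The FGF list had 4 of 23 genes. Fgfr1, a receptor, had a peak of 1371 bp 29491 bp upstream (chr8:25483478-25484848), Fgfr4 one of 605 bp 26322 bp downstream and the adaptor gene Frs2 one of 584 bp 29767 bp upstream; Fgfr2 was the other. In the Hedgehog and retinoic acid list it was 5 of 31. The widest were near Boc, a Hedgehog co-receptor (1387 bp, 47807 bp upstream), Crabp1, a retinoic acid binding protein (1132 bp, 19078 bp downstream of the TSS), and Rxra, a retinoid receptor (966 bp, 39443 bp upstream). Shh and Cyp26b1 were the others. The Notch list had 1 of 19, the ligand gene Dll4, with a peak of 553 bp 16951 bp upstream.

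Of 15 endoderm genes there were 2. Foxa2 had a peak on either side, 40123 bp downstream (421 bp, with the GATA match shown above) and 41734 bp upstream (729 bp), and Cxcr4, a chemokine receptor, had a peak of 804 bp 47620 bp upstream. Of 24 neural and neural crest genes there were Sox9, with a peak of 1020 bp 10984 bp downstream of the TSS, and Pax7, with one of 399 bp 21902 bp upstream. Of 31 chromatin genes the only one was Chd7 itself. Its peak of 562 bp (chr4:8883782-8884343) was 28832 bp downstream of the nearest TSS of Chd7, outside the gene body, in the interval towards Clvs1, and 1028276 bp from the next CHD7 peak. The ribosomal protein genes were Rps24, Rpl3 and Rps14, with peaks of 900, 771 and 711 bp. Of 22 semaphorin and plexin genes and 20 endothelial and blood genes, 0 were nearest to a member, which allows shares of up to 13.6 and 15%. The lists do not hold every gene of a family: the semaphorin gene Sema4b, which is not on its list, was nearest to a member of 1532 bp, 26389 bp upstream.

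RefSeq annotates functional elements with published evidence, and 5 of the 593 peaks (0.843%) overlapped one, chosen for naming after the overlap was seen. Genic peaks at the same distance had 7 of 614 (1.14%), promoter peaks 2 of 585 (0.342%) and intergenic peaks at 50 to 100 kb 1 of 282 (0.355%). Of the 5, 4 were enhancers with reporter activity in mouse embryos. A peak of 1148 bp 29365 bp downstream of the TSS of Ccdc42 overlapped an element at chr11:68623475-68624174 that was active in heart and somite. A peak of 973 bp near Src overlapped an element active in somite, one of 420 bp near Ap5m1 an element active in limb and one of 459 bp near Parvb an element active in the branchial arches. The remaining peak, of 689 bp and 45509 bp downstream of the TSS of Mrpl23, overlapped a DNase I hypersensitive site at chr7:142581576-142582833, whose coordinates RefSeq notes as approximate, so this overlap is less certain.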

How the data were processed

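CUT&RUN libraries were made from CP cells at day 5 with anti-CHD7, IgG or as input, in 3 biological replicates each. Per the study's methods and the submitters' processing notes, the authors trimmed reads with fastp 0.20.1, aligned them to mm10 with BWA 0.7.17.4, deduplicated them by molecular barcodes (JE-Suite), ran MACS2 2.1.2 on every sample against IgG and kept those overlapping in at least 2 replicates. The calling threshold and the joining of overlaps are not given in the sources used here. The deposited values are positions in bp of 3761 peaks, with no count, signal or P-value. Starts were read as counted from 0. Reads, IgG and input were not analysed here.

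Midpoints were set against GENCODE M21 and GRCm38.p6, and GC, CpG, soft-masked repeats and 16 motifs were read from the sequence. Eligible sequence is every base other than N that meets a class's rule. Fisher's exact tests (2-sided) compared shares, with conditional 95% intervals, and an exact conditional binomial test compared densities, with peaks as units. P-values were adjusted by Benjamini-Hochberg over 21 tests, and over 48 for motifs, with a threshold of 0.05. Peaks are named near all genes of the cardiac factor and mesoderm lists, near up to 3 genes with the widest peak in each other list, and as the 3 widest, the closest to either limit, the closest pair and those of genes with most members. The 15 lists held 384 entries, and all 384 matched a gene, older symbols included. The members and lists were chosen with earlier results of these data known. Alternatives were other TSSs, peak edges, genes of any type, wider peaks, merged peaks and other windows. Functions were tested on simulated data. Python 3.11.15 was used with numpy 2.4.6, pandas 2.3.3, scipy 1.17.1 and matplotlib 3.10.9.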

Additional observations from a re-analysis of the deposited data

How the results depend on the processing

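No paired analysis was possible because the deposited list pools the 3 anti-CHD7 replicates and holds no value per replicate; leaving out a replicate was not possible for the same reason. The differences from promoter peaks in width, GC, CpG island criteria and repeats kept their direction and their side of the threshold under every alternative run. With 1 TSS per gene, the density ratio to genic peaks was 0.806 (now significant) and that to the farther intergenic class 1.16 (no longer significant), and the odds ratio for repeats against genic peaks was 1.38 (no longer significant). The density ratio to the farther class also lost significance with genes of any type left out (1.2), in peaks wider than the median (1.28) and, added after seeing the data, without chromosomes X and Y (1.16). Odds ratios that were not significant in either setting changed direction with 1 TSS per gene for GC against genic peaks (0.752), repeats against the farther class (0.857) and noncoding genes (0.982). They did so with genes of any type left out for GC against genic peaks (0.983), and in wider peaks for GC against genic peaks (0.908), noncoding genes (0.686), neighbours against promoters (1.11) and promoter peaks at the nearest gene against genic (1.18) and farther peaks (0.792). With width above 1 kb they were 0.990 against genic and 0.917 against farther peaks, with GC in 200 bp 0.913 and 0.826, with CpG criteria in 500 bp 1.04 against genic peaks and with neighbours within 25 kb 1.02 against farther peaks. Wider peaks alone gave 299 members, and the motif comparisons past the threshold numbered 3 in windows of 100 bp and 11 in 500 bp. The cause was not tested, beyond the fewer peaks or bases that wider peaks and short windows hold. Against promoters, GATA (1.84) and ISL1 (2.62) missed the threshold in wider peaks, and HAND (1.66), SOX (2.03) and ISL1 (2.70) in 100 bp, where SOX and ISL1 kept about their size. Density could not be computed for peak edges, nor noncoding genes once these were left out, and CpG criteria against genic peaks had no odds ratio in wider peaks, where both counts were 0.

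The list gives 1 position per peak and no strength, so wider peaks were used in place of a stricter list. Whether width follows strength could not be tested. Intervals cover counting error over peaks, not differences between cultures. Mapping filters and the calling threshold are not given, and their part in the values for repeats and chromosome X was not tested. The nearest gene is a label of position, not a target.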
